A study of Drosophila melanogaster with 4 samples.

Results

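The maltase family of the fly comprises the genes Mal-A1 to Mal-A8 and Mal-B1 and Mal-B2. Its probe sets were chosen by gene symbol, and the family itself was picked with the signals of the Gyc76C against GFP comparison already known. The 10 genes were each represented by 1 probe set, 10 of the 18769 probe sets of the array that are not controls. All 10 reached the level set for testing, a mean signal over the 4 arrays of at least 46.3, although Mal-B1 did so only through the larvae in which it was brighter. Their differences between the genotypes are therefore given below as a description, and the count of calls among them supports nothing on its own.

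Maltases are alpha-glucosidases, enzymes that cut terminal glucose units from maltose, sucrose and related sugars. In insects they act mainly in the midgut, where they complete the digestion of starch that amylases begin. In the fly, the digestive carbohydrases are known to be held down by dietary glucose, through sugar sensing and Activin signalling.

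RNA of whole third-instar larvae of Drosophila melanogaster, reared at 25 °C, was hybridized to 1-colour Affymetrix arrays. The Gyc76C larvae carried C564-Gal4 and UAS-Gyc76C, a transgene for a receptor guanylate cyclase that makes cyclic GMP, and the GFP larvae carried C564-Gal4 and UAS-GFP. Both genotypes thus shared the driver. For the Gyc76C larvae the labels name the fat body as the site of overexpression, and the driver is known to be active in some other tissues as well. There were 2 arrays a genotype, titled as biological replicas, with no statement of how many larvae went into each.

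The brightest probe set for the overexpressed gene, annotated to Gyc76C and CG42637 together, had signals of 16050 and 20993 in Gyc76C larvae, against 1047 and 928 in GFP larvae. It was 18.6-fold higher (log2 fold change 4.22, SE 0.17, limma adjusted p = 5.79e-05). Over the 11261 probe sets tested, arrays of the same genotype correlated at 0.966 to 0.968 and arrays of different genotype at 0.88 to 0.91. The median log2 fold change of all tested probe sets was -0.16, so values with each array centred on its median are given where they matter. Fewer cells of a type and less RNA per cell cannot be told apart in RNA of whole larvae.

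Most of the Mal-A genes were severalfold brighter in Gyc76C larvae, and 1 gene in the middle of their cluster, Mal-A5, went the other way. Mal-A1, Mal-A2, Mal-A3, Mal-A4, Mal-A6, Mal-A7 and Mal-A8 were 3.33-fold to 7.7-fold higher, and Mal-A5 was 3.37-fold lower. Mal-B1 and Mal-B2 were not called. By limma over the whole table, at an adjusted p under 0.05, 8 of the 10 maltase probe sets were called, beside 24.6% of all probe sets tested. Of these, 7 were higher, beside 11.3% of all tested, and 1 was lower, beside 13.3%. The median log2 fold change of the 10 was 1.81, against -0.16 over all probe sets tested.

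**Figure D1:**
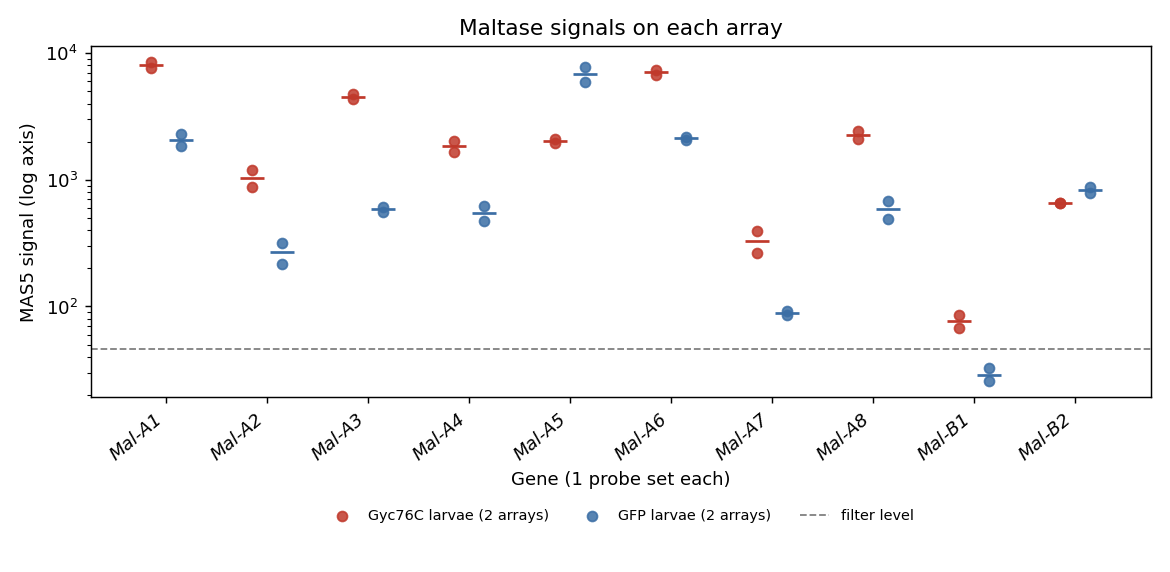
MAS5 signal (log axis) of each maltase probe set on the 2 Gyc76C arrays (red, left of each pair) and the 2 GFP arrays (blue, right), with points for arrays, short lines for the mean of each genotype and a dashed line at the filter level of 46.3. The red points lie above the blue ones for Mal-A1 to Mal-A4, Mal-A6 to Mal-A8 and Mal-B1 and below them for Mal-A5 and Mal-B2.

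Mal-A1, Mal-A2 and Mal-A3 are the genes first described as LvpH, LvpD and LvpL, for larval visceral protein, names that the RefSeq gene table still lists as synonyms. The Mal-A3 probe set had signals of 4735 and 4309 in Gyc76C larvae, against 615 and 560 in GFP larvae. Both Gyc76C arrays lay far above both GFP arrays, and the 2 arrays of a genotype differed by 1.1-fold in either genotype. Mal-A3 averaged 4522 ± 302 in Gyc76C larvae and 588 ± 38.9 in GFP larvae (mean ± SD, n = 2 each), 7.7-fold higher (log2 fold change 2.94, SE 0.13), the largest difference of the 10 genes.

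Mal-A1 had signals of 7637 and 8521 in Gyc76C larvae, against 2299 and 1851 in GFP larvae, and the groups did not overlap. The difference was 3.91-fold (log2 fold change 1.97, SE 0.15). Mal-A2, a dimmer probe set, had 1191 and 882 in Gyc76C larvae, against 319 and 216 in GFP larvae. Its fold change was also 3.91, with a larger SE of 0.24 on the log2 scale, since its arrays differed by 1.35-fold within the Gyc76C larvae and by 1.48-fold within the GFP larvae. Mal-A1 and Mal-A2 thus shared 1 fold change, and Mal-A3, next to Mal-A2 in the cluster, had about 1 further unit on the log2 scale, a difference that was not tested.

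Mal-A4 follows Mal-A3 in the cluster and had signals of 2014 and 1661 in Gyc76C larvae, against 616 and 477 in GFP larvae. The groups were well apart, and Mal-A4 was 3.37-fold higher (log2 fold change 1.75, SE 0.18).

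Mal-A5 was the only member called lower. Its signals were 1957 and 2087 in Gyc76C larvae, against 5945 and 7794 in GFP larvae. Both Gyc76C arrays lay below both GFP arrays, and the wider spread was among the GFP arrays. Mal-A5 averaged 2022 ± 91.9 in Gyc76C larvae and 6869 ± 1307 in GFP larvae (SD, n = 2 each), 3.37-fold lower (log2 fold change -1.75, SE 0.16). In size its difference was that of Mal-A4, its neighbour on one side, with the opposite sign.

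Mal-A6, the neighbour of Mal-A5 on the other side, had signals of 6718 and 7407 in Gyc76C larvae, against 2178 and 2064 in GFP larvae. It was 3.33-fold higher (log2 fold change 1.73, SE 0.13), with groups far apart. The gene table lists CG8689 as an older name of both Mal-A5 and Mal-A6, which now stand as separate genes with separate probe sets. The signal ratio of Mal-A6 over Mal-A5 within an array does not depend on how arrays were scaled. It was 3.43 and 3.55 in the Gyc76C arrays, against 0.366 and 0.265 in the GFP arrays, a shift of 3.49 on the log2 scale. Relative to Mal-A5, the other 6 Mal-A genes shifted by 3.51 (Mal-A4) to 4.70 (Mal-A3) on the log2 scale.

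Mal-A7 was the dimmest Mal-A probe set. It had signals of 262 and 397 in Gyc76C larvae, against 92.1 and 85.2 in GFP larvae. The Gyc76C arrays differed from each other by 1.52-fold, the widest spread within a genotype of any Mal-A gene, yet both lay above the GFP arrays. The difference was 3.64-fold (log2 fold change 1.86, SE 0.27).

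Mal-A8 closes the cluster. It had signals of 2093 and 2442 in Gyc76C larvae, against 683 and 487 in GFP larvae, without overlap. It was 3.92-fold higher (log2 fold change 1.97, SE 0.19). Of the 7 Mal-A genes that were higher, 6 lay between 1.73 and 1.97 on the log2 scale, and Mal-A3 stood apart at 2.94. For scale, 249 of the 11261 probe sets tested (2.21%) had a log2 fold change of 1.73 or more, and 307 (2.73%) had one as low as that of Mal-A5 or lower.

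The measured differences of both Mal-B genes were smaller than those of the Mal-A genes, but that of Mal-B1 was imprecise. This contrast was not tested. Mal-B1 was dim, with signals of 85.3 and 67.5 in Gyc76C larvae, against 32.4 and 25.6 in GFP larvae. Both GFP signals were under the filter level of 46.3, where MAS5 signals scatter widely. With signals under that level raised to it, Mal-B1 was 1.64-fold higher in Gyc76C larvae (limma adjusted p = 0.107). Its measured log2 fold change was 1.40 (SE 0.54), and it was not called either way. Mal-B2 had signals of 661 and 653 in Gyc76C larvae, against 788 and 881 in GFP larvae. Its groups did not overlap, but the log2 fold change was -0.34 with an SE of 0.14, and -0.19 with centred arrays, and it was not called. Groups that do not overlap were common in this comparison. They were found for all 10 maltase probe sets and for 7695 of all 11261 tested (68.3%).

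Centring the arrays left these contrasts in place. The 7 Mal-A genes that were higher then had log2 fold changes of 1.89 (Mal-A6) to 3.10 (Mal-A3), and Mal-A5 had -1.59. Of the probe sets called over the whole array, 1271 were higher and 1500 lower as deposited, and 1663 were higher and 991 lower with centred arrays.

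**Figure D2:**
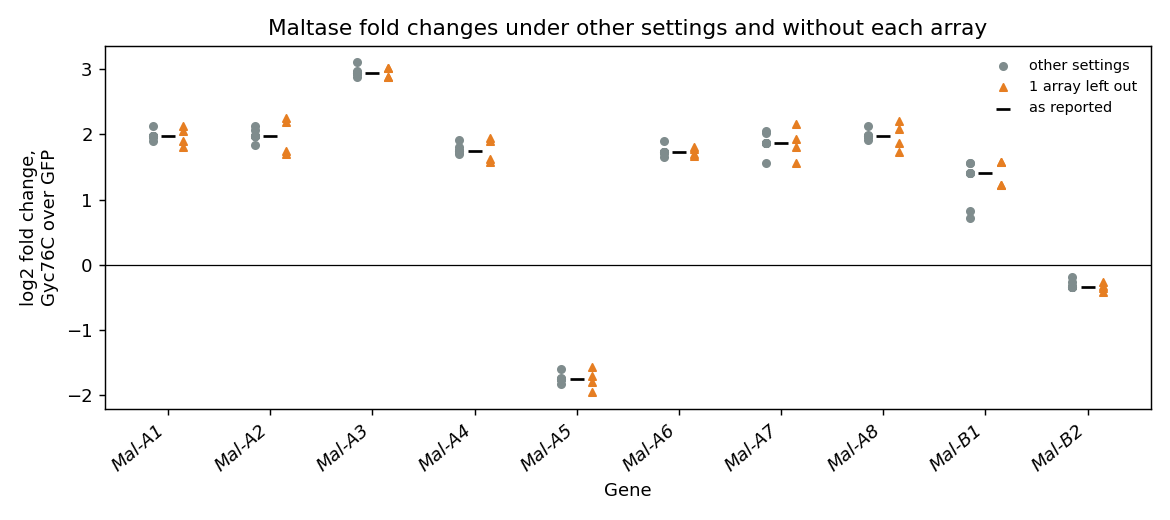
Log2 fold change (Gyc76C over GFP) of each maltase gene as reported (black line), under other processing settings (grey) and with 1 array left out (orange). Mal-A3 stays between 2.88 and 3.10 and Mal-A5 between -1.95 and -1.56, and Mal-B1 has the widest range, from 0.71 to 1.57.

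The members share more than their enzyme family. In the RefSeq gene table the 8 Mal-A genes lie next to each other in the order of their numbers on chromosome arm 2R, with 0 other genes between them. The 2 Mal-B genes are neighbours on arm 2L. Of the probe sets, 9 carry the plain suffix that Affymetrix gives to sets for a single target, and that of Mal-B2 carries the suffix for a set that reads several transcripts of the same gene. The probe sequences were not used here, so cross-hybridization between these related genes was not tested.

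The genes that flank the clusters were compared in the same way. Cyp4e1, a cytochrome P450 gene beside Mal-A1, had signals of 35.3 and 74 in Gyc76C larvae, against 71.3 and 49 in GFP larvae, which overlapped (log2 fold change -0.21, SE 0.56, limma adjusted p = 0.81). On the other side of the cluster mtt was too dim to be tested, at 32 and 23 in Gyc76C larvae, against 25.3 and 56.9 in GFP larvae. Beside the Mal-B pair, Pde1c, which encodes a phosphodiesterase, had signals of 64.3 and 77.6 in Gyc76C larvae, against 74.2 and 52.6 in GFP larvae. Its log2 fold change was 0.18 (SE 0.42, limma adjusted p = 0.786). CG44008, the nearest gene with a probe set on the other side, past 3 genes without one of a single symbol here, had -0.24 (SE 0.16, limma adjusted p = 0.324). None of the 3 flanking genes tested passed the threshold.

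**Figure D3:**
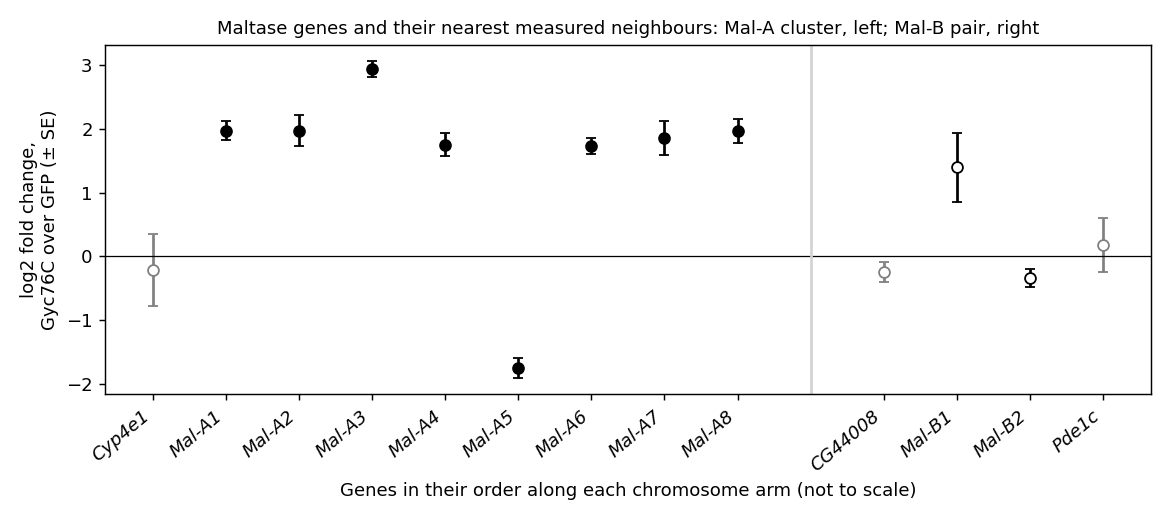
Log2 fold change (Gyc76C over GFP, ± SE) of the maltase genes (black) and their nearest tested neighbours (grey), in gene order and not to scale, with filled points for probe sets at an adjusted p under 0.05. Mal-A5 at -1.75 lies between Mal-A4 at 1.75 and Mal-A6 at 1.73. The neighbours lie between -0.24 and 0.18, with SEs of 0.16 (CG44008) to 0.56 (Cyp4e1).

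A list of other alpha-glucosidases and relatives, with enzymes of glycogen and trehalose, gave 1 call. Here and below each gene stands by its brightest tested probe set, and 25.7% of all 9259 genes tested passed the threshold, with a median log2 fold change of -0.17. The gene tobi encodes another alpha-glucosidase, known as a target of insulin and adipokinetic hormone signalling. It had signals of 823 and 825 in Gyc76C larvae, against 173 and 96.9 in GFP larvae. It was thus 6.37-fold higher (log2 fold change 2.67, SE 0.28, limma adjusted p = 0.00176), beside 7.7-fold for Mal-A3. Of the 8 genes of that list tested, which include glycogen synthase (Glys), the glycogen branching enzyme (AGBE) and CD98hc, an amino acid transporter subunit related to maltases, tobi was the only one called, and the list median was 0.15. With centred arrays 3 of them were higher. Amyrel, an amylase-related gene and the only amylase gene measured by a probe set of its own, had a log2 fold change of 0.01 (SE 0.22, limma adjusted p = 0.984), with -0.32 without Gyc76C replicate 1 and 0.33 without Gyc76C replicate 2.

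Some sugar transporters take up the sugars that maltases release, and the list used here was not limited to transporters of the gut. Of 24 sugar transporter genes tested, 10 rose and 2 fell, with a median log2 fold change of 0.42. CG33281, a predicted sugar transporter gene, had signals of 2873 and 2319 in Gyc76C larvae, against 673 and 488 in GFP larvae, 4.51-fold higher (log2 fold change 2.17, SE 0.20, limma adjusted p = 0.00113). CG6484 and CG14606, predicted transporters too, rose 3.36-fold and 3.34-fold. The glucose transporter gene Glut1 fell, with 121 and 88.6 in Gyc76C larvae, against 236 and 595 in GFP larvae (log2 fold change -1.85, SE 0.43, limma adjusted p = 0.025). Its log2 fold change rested on the spread of the GFP arrays, with -1.19 without GFP replicate 2 (limma adjusted p = 0.0504) and -2.52 without GFP replicate 1, and its call ended with no mean trend in the variance (0.0852). The number of transporters that rose was 5 when either Gyc76C array was left out. It was also 5 when the variance was fitted with no mean trend, and then 0 fell.

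Among 12 genes of sugar sensing and Activin signalling 1 was called. This was sug, or sugarbabe, a zinc-finger transcription factor gene induced by dietary sugar. Its signals were 1576 and 1272 in Gyc76C larvae, against 630 and 491 in GFP larvae (2.55-fold higher, log2 fold change 1.35, SE 0.19, limma adjusted p = 0.00438). The list had a median of 0.15, and without GFP replicate 1 there were 3 genes higher and 1 lower. Of 8 genes of insulin and adipokinetic hormone signalling 2 fell, and the median was -0.27. ImpL2, whose product binds insulin-like peptides, had 1771 and 1612 in Gyc76C larvae, against 3205 and 3155 in GFP larvae (log2 fold change -0.91, SE 0.13, limma adjusted p = 0.00453). The transcription factor gene foxo had -0.79 (SE 0.22, limma adjusted p = 0.043), and its call ended under 8 of 13 alternatives (0.0544 to 0.179 there), among them centred arrays (0.0726) and leaving out either Gyc76C array.

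Other digestive enzymes moved in both directions. Of 22 digestive protease genes 3 rose and 4 fell, with a median of -0.03, and with centred arrays 5 rose and 3 fell. The trypsin gene betaTry had signals of 12985 and 13536 in Gyc76C larvae, against 4211 and 3233 in GFP larvae, 3.59-fold higher (log2 fold change 1.85, SE 0.16, limma adjusted p = 0.000977), a difference of the size seen for most Mal-A genes. Jon74E, of the Jonah family of serine proteases, rose 2.14-fold, whereas its relatives Jon66Cii and Jon44E had log2 fold changes of -2.31 and -1.26. The Jon44E call ended without Gyc76C replicate 1 (limma adjusted p = 0.074) and with no mean trend in the variance (0.0947), and 1 protease gene fell without that array.

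Of 10 lipase, mannosidase and lysozyme genes 8 fell and 0 rose, with a median of -1.95. Most of them were LMan mannosidase genes, and mag was the only lipase gene. The lysozyme genes tested were LysP, LysS and LysX, since LysB, LysC, LysD and LysE had no probe set of a single symbol. LManV, a lysosomal alpha-mannosidase gene, had 820 and 638 in Gyc76C larvae, against 7167 and 4784 in GFP larvae (8.09-fold lower, log2 fold change -3.02, SE 0.22, limma adjusted p = 0.000516). LManVI was 9.32-fold lower. With signals under 46.3 raised to that level, LManIII, dim on 1 Gyc76C array, was 17.7-fold lower. The lysozyme gene LysP, dim on both, was then 3.8-fold lower. The LManIII call ended with a robust variance (limma adjusted p = 0.129) and with no mean trend in it (0.0782), and its log2 fold change of -5.84 was -8.02 without Gyc76C replicate 1 and -3.65 without Gyc76C replicate 2.

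**Figure D4:**
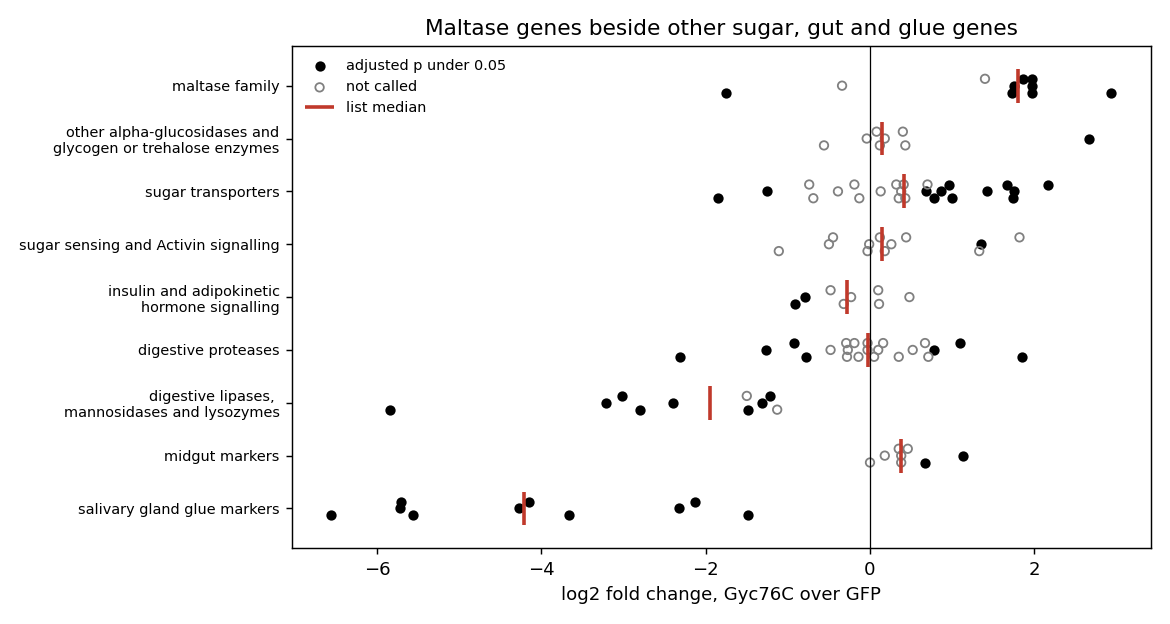
Log2 fold changes (Gyc76C over GFP) of the 10 maltase genes and of genes in 8 other lists, 1 point a gene, filled where the adjusted p was under 0.05, with a red line at each median. The maltase median is 1.81, the sugar transporter median 0.42, the lipase, mannosidase and lysozyme median -1.95 and the glue gene median -4.21.

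Tissue markers give the background in which the maltase signals were read. The midgut gene mex1 had signals of 4252 and 3802 in Gyc76C larvae, against 3928 and 4139 in GFP larvae, which overlapped. It was named after its values were seen, and it differed least of the midgut markers tested. The other midgut markers had log2 fold changes of 0.18 (dve) to 1.13 (Tsp2A). Of 8 midgut markers tested 2 rose and 0 fell, with a median of 0.38 (0.54 and 4 higher with centred arrays), and 0 of the 8 were under 46.3 on all 4 arrays. Their summed signals were 13993 to 14636 in Gyc76C larvae and 11000 to 11066 in GFP larvae. The markers that rose were Tsp2A, at 2.19-fold, and mesh, at 1.6-fold, which encode parts of the septate junctions of the gut lining. The mesh call ended without either Gyc76C array (limma adjusted p = 0.113 and 0.0783) and with no mean trend in the variance (0.0623).

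Markers of salivary gland differed far more. All 10 glue genes tested fell, with a median of -4.21, and their summed signals were 23212 to 29974 in Gyc76C larvae and 209526 to 223865 in GFP larvae. Sgs3, a glue protein gene, had 628 and 269 in Gyc76C larvae, against 41286 and 36262 in GFP larvae. The Sgs glue genes are normally switched on during the third instar. The part that either marker group has in the maltase differences was not tested.

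Of 4 fat body markers 2 fell, Fbp1 and Fbp2 (median -0.42), and Fbp2 had a limma adjusted p of 0.0499. The Fbp2 call ended under 10 of 13 alternatives, among them centred arrays (limma adjusted p = 0.171), the replicate block (0.177) and leaving out any 1 array (0.0609 to 0.135). After quantile normalization 1 marker rose and 2 fell. The fat body gene Fbp1 had 10611 and 14728 in Gyc76C larvae, against 34606 and 38681 in GFP larvae. The 2 fat body markers not called differed in direction, with log2 fold changes of -0.37 for Lsp2 and 0.41 for apolpp. Of 4 muscle markers 3 rose, bt, sls and Mlc2 (median 1.41). Of 5 haemocyte markers He and srp fell (median -0.05), and of 3 Malpighian tubule markers ZnT35C and ry fell (median -0.78). Of 2 neuron markers tested 0 passed the threshold by limma and 1, elav, had an unadjusted p under 0.05 (0.0348), with a median of -0.44. Of these calls, that of srp ended under 6 of 13 alternatives (limma adjusted p = 0.0625 to 0.124 there), among them centred arrays and quantile normalization. The ZnT35C call ended when either Gyc76C array was left out (0.113 and 0.0605) and with no mean trend in the variance (0.0522), and the sls call ended in that last setting too (0.0539).

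The genes whose 4 signals ran most like those of Mal-A1, the brightest member, were sought among 9249 other genes. Likeness was the distance between log2 signals over the 4 arrays, each gene centred on its own mean. The closest was Muc18B, a mucin gene, at a distance of 0.0403, against a median of 2.19 over all genes compared. Muc18B had signals of 10119 and 10990 in Gyc76C larvae, against 2933 and 2410 in GFP larvae, 3.97-fold higher. CG18609 at 0.146, betaTry at 0.148, CG14984 at 0.165 and CG31664 at 0.168 came next, with 3.58-fold to 3.77-fold higher signals in Gyc76C larvae. With 4 arrays in 2 genotypes, this order rests mainly on the size of the genotype difference.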

How the data were processed

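Whole larvae of 2 genotypes were measured on 4 arrays, 2 per genotype, grouped by their titles. The authors' intensity values, 1 per probe set and not on a log scale, came from MAS5 according to the submitters' processing notes, with no version stated. The trimmed mean (2% at each end) was 500 on each array, to the nearest whole number, so they had been scaled. Detection calls and the genome build are not given in the sources used here. Every column belonged to a sample.

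Control probe sets (183 of 18952) were left out. Tests used log2 signals with no pseudocount. Probe sets with a mean signal at or above the 40th percentile (46.3) were kept, 11261 in all. Genotypes were compared with limma 3.58.1 in R 4.3.3 (lmFit, eBayes with a mean trend, 2 residual and 4.64 prior degrees of freedom), with two-sided p-values adjusted by Benjamini-Hochberg over all probe sets tested and calls at an adjusted p under 0.05. Fold changes are ratios of geometric means, and where the text says so signals under 46.3 were first raised to that level. P-values measure the spread between these arrays only, and the number of arrays limits the precision.

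Symbols came from the platform annotation: 13646 probe sets had 1, 402 several and 4721 none. None of the single symbols differed from the RefSeq table of assembly Release 6, whose coordinates were not printed. Named genes are all members, the overexpressed gene, flanking genes, up to 4 called genes of each of 14 lists (2 where none was called), and the 5 profiles nearest the brightest member; mex1 was added after its values were seen. Members and lists were chosen with earlier results of these data known. Alternatives were 2 scalings, 2 filters, a floor, a pseudocount of 32, 2 variance models, a replicate block and leaving out each array.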

Additional observations from a re-analysis of the deposited data

How the results depend on the processing

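The 8 called maltase genes kept their call and direction under all 13 alternatives, with adjusted p of 4.46e-06 to 0.0363 by limma. Mal-B1 passed without a mean trend in the variance (0.0403), which made 9 maltase calls, and it was not tested with a filter at the 60th percentile. The 93 other sugar and gut genes are those tested in 8 of the lists, namely all but the tissue markers other than midgut. Signalling genes and lysosomal mannosidases are thus among them. As reported, 33 of the 93 were called, beside 25.7% of all genes tested. Without that trend 1241 probe sets of the array and 18 of the 93 were called, against 2771 and 33 as reported. The cause was not tested. Leaving out 1 array gave 1204 (without Gyc76C replicate 1) to 3350 (without GFP replicate 1) probe sets, 23 to 44 of the other genes and 8 maltase genes each time. The other genes called were 17 higher and 16 lower as reported, and 25 and 14 with centred arrays. The labels number the arrays alike in both genotypes, but nothing ties equal numbers to shared larvae, and deviations of same-numbered arrays correlated at 0.0445. With the replicate number as a block 3101 probe sets, 38 of the other genes and 8 maltase genes were called. A lone array left in a genotype was assumed to vary like the other genotype's. Dim signals limit Mal-B1: its log2 fold change was 0.71 with low signals raised to the filter level and 1.57 at most.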
